A study of Mus musculus with 21 samples.

Results

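The genes described here are 38 mouse genes of the lysosome among the 27179 genes counted in every library: 10 cathepsins with legumain, 11 glycosidases, 10 hydrolases and cofactors for lipids, peptides and sulfates, 6 membrane proteins and the transcription factor Tfeb. They were taken as a fixed list of symbols, matched to Entrez Gene numbers, and all 38 were found. RNA was sequenced from podocyte fractions, which are cells of digested kidney cortex held on magnetic beads through antibodies to nephrin, a podocyte surface protein. All mice were wildtype C57BL/6J males. The 6 young mice were 4 months old and untreated. The 7 middle-aged saline-treated mice and the 8 middle-aged MCC950-treated mice were 19.5 months old, after 6 weeks of intraperitoneal injections that began at 18 months of age. MCC950 is a small-molecule inhibitor of the inflammasome sensor NLRP3 and was given at 10 mg/kg. Because the young mice received no injections, age and injection cannot be told apart in the comparison of saline-treated with young mice. Below, "with age" is a short name for that comparison and does not name a cause.

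Lysosomes are acidic compartments in which proteins, glycans and lipids delivered by endocytosis and autophagy are broken down. Soluble hydrolases reach them from the Golgi on mannose 6-phosphate receptors, their membrane is lined by heavily glycosylated proteins such as LAMP1, and a proton pump, the V-ATPase, keeps the lumen acidic. Tubular cells that take up filtered protein and macrophages that ingest debris are both rich in lysosomes, and podocytes, which hardly divide, depend on lysosomal and autophagic turnover. Lysosomes also bear on the inflammasome, since cathepsins released from damaged lysosomes are a known trigger of NLRP3.

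Many lysosomal genes carry in their promoters a palindromic E-box that TFEB and its relatives bind, and the letters of that element are shown for members that hold it. Promoters of 300 bases (250 before and 50 from the start site, RefSeq, GRCm38.p6) were searched on both strands for CACGTG and for the longer TCACGTGA, which contains it. Promoters were matched for 34 of the 38 genes, and those of Asah1, Ctsb, Ctsh and Npc1 were not used here. CACGTG stood in 10 of 39 member promoters (25.6%) and in 2349 of all 32851 promoters (7.15%), and TCACGTGA stood in 4 of 39 (10.3%) and in 320 of all (0.974%). The 34 genes had 39 promoters between them. The start site of a promoter can lie inside the gene interval given later, as for Ctsa and Lgmn. Below, the element is in capitals in 30 bases of the strand of the gene, 5′ to 3′. These are given for the 4 genes with the longer element and for Lgmn and Naglu. The position of the C that opens CACGTG, relative to the start site of that promoter, follows the coordinates.
Ctsa, chr2:164833749-164833778, plus strand, position -12: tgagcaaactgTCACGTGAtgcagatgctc
Ctsa, chr2:164833766-164833795, plus strand, position 6: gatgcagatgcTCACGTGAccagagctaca
Ctsd, chr7:142387908-142387937, minus strand, position -98: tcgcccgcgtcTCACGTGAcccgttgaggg
Gla, chrX:134601215-134601244, minus strand, position -227: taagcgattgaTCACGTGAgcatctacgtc
Gla, chrX:134601182-134601211, minus strand, position -194: tgagatctcggTCACGTGAgcaactctcgg
Mcoln1, chr8:3500462-3500491, plus strand, position -45: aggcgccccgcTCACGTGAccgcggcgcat
Lgmn, chr12:102439124-102439153, minus strand, position -49: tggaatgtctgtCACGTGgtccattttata
Naglu, chr11:101070009-101070038, plus strand, position -73: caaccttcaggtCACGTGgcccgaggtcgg
The core also stood in the promoters of Ctsl, Glb1, Gaa and Lamp1, and Lamp1 held it at 4 positions. Of the 18 matched genes that were higher in saline-treated than in young mice, 4 held CACGTG, as did 6 of the 16 matched genes that were not. A match of letters is a description of the window and says nothing of binding.

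Libraries held between 27375870 and 36827823 counts in young mice, 45772937 and 84876399 in saline-treated mice and 35440472 and 58247271 in MCC950-treated mice. Saline-treated libraries were all deeper than young ones. Mitochondrial genes took between 49.9% and 80.4% of the counts over all libraries, and at least 5804891 counts were left outside them. Every one of the 15 podocyte markers was counted in every library, but the summed level of 15 proximal tubule markers was higher than that of the podocyte markers within each group. The podocyte sum ranged from 843 to 1884 CPM (counts scaled to a common, normalized library size) in young, 324 to 616 in saline-treated and 442 to 740 in MCC950-treated mice. Its medians were 1449, 504 and 566 CPM in that order. The median sum of 14 macrophage and myeloid markers was higher in each group, at 1639, 2874 and 2200 CPM, with overlapping ranges in young mice. That of 7 loop and distal tubule markers was higher too, at 3234, 3812 and 3189 CPM. Levels are therefore those of the whole fraction and not of podocytes alone. In such bulk samples, fewer cells of a type and less RNA per cell cannot be told apart.

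The 38 genes differed widely in level. Per kilobase of exon, the median normalized CPM over young libraries was highest for Psap, at 366, followed by Ctss at 140 and Ctsd at 136. Psap encodes prosaposin, the precursor of the saposins that help hydrolases act on sphingolipids. Ctsk was the lowest, at 0.208 in young and 0.564 in saline-treated libraries, and rested on 6 to 18 reads per young library. Members of the membrane class other than Lamp1 and Lamp2 were low, from 1.40 for Npc1 to 4.36 for Cd63 in young libraries. Together, the 38 genes took 1.09% to 1.43% of the counts outside mitochondrial genes in young libraries, 1.45% to 1.84% in saline-treated and 1.15% to 1.88% in MCC950-treated libraries. The young and saline-treated ranges of this share did not overlap.

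**Figure D1:**
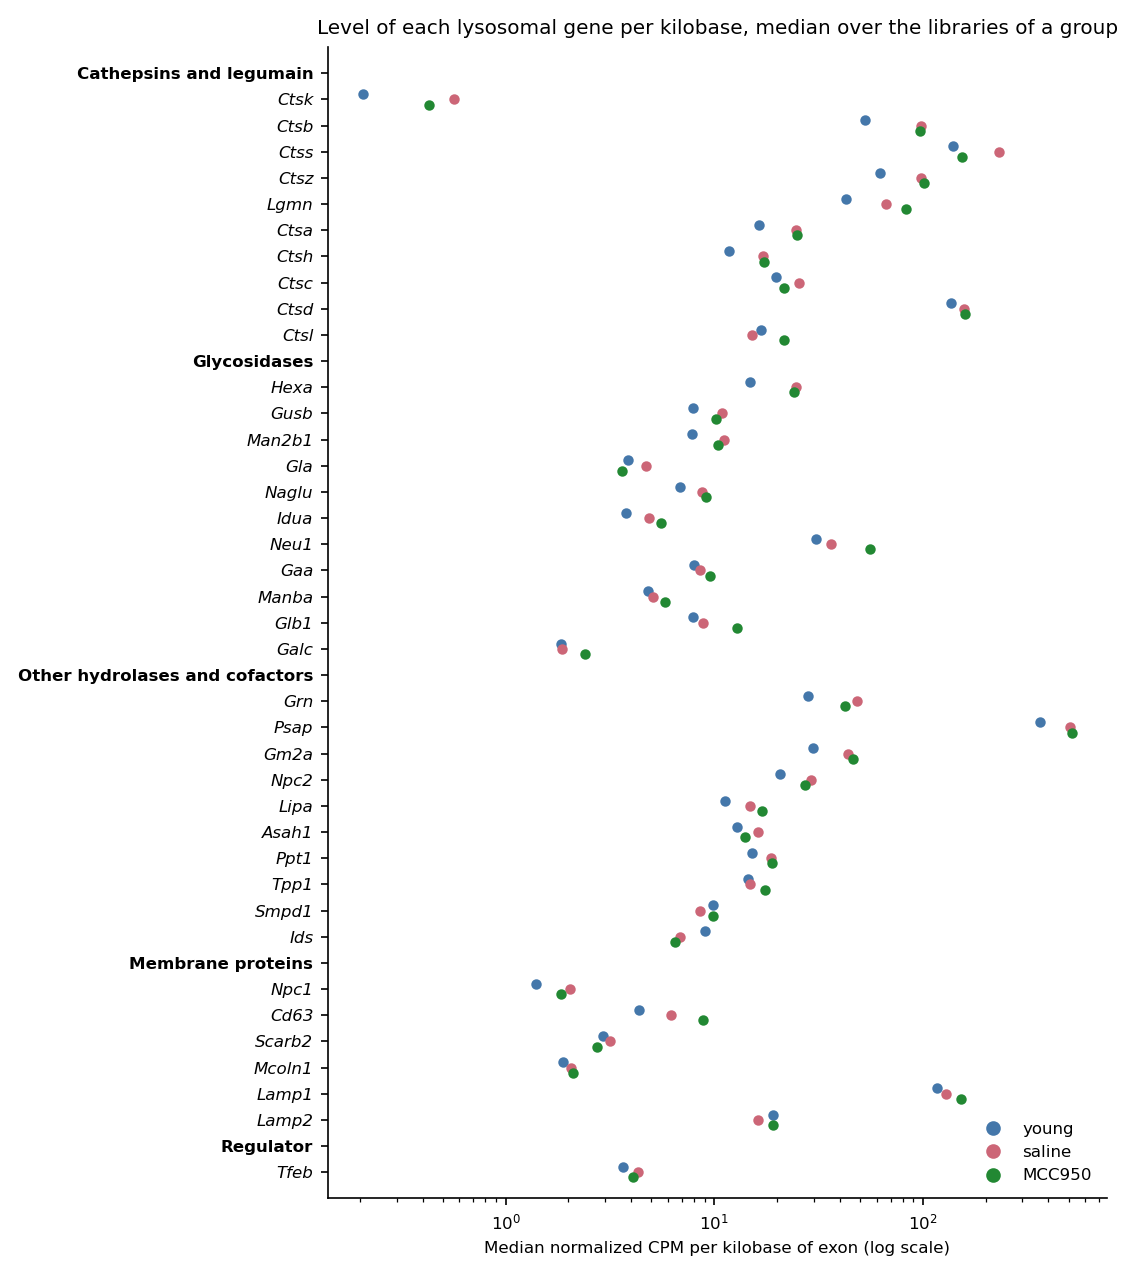
Median normalized CPM per kilobase of exon (log scale) of each of the 38 lysosomal genes in young, saline-treated and MCC950-treated libraries, by class. Psap, Ctss, Ctsd and Lamp1 lie above 100 in every group and Ctsk lies below 1.

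The first comparison asked how lysosomal transcripts differed between middle-aged saline-treated and young mice. Lysosomal genes were mostly higher in middle-aged mice: 21 of 38 rose (55.3%), among them the cathepsins Ctsb, Ctsz and Ctsa, legumain, prosaposin, progranulin and the GM2 activator, 1 fell (Ids) and 16 did not pass the test. Changes were tested with edgeR's quasi-likelihood test over all 16377 genes that passed a filter on low counts, at a Benjamini-Hochberg adjusted p under 0.05, where 12.2% of all genes were higher and 12.4% lower. All 38 members passed that filter. The log2 fold change was above 0 in 33 members and its median was 0.35, against 0.02 over all genes tested. Young and saline-treated libraries did not overlap in 11 members that were higher and in Ids, which was lower, whereas 4.51% of all genes were higher and 4.86% lower without overlap. None but Ctsk changed by more than 2-fold. The calls of 13 of the 22 genes held when any 1 of the 21 libraries was left out.

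**Figure D2:**
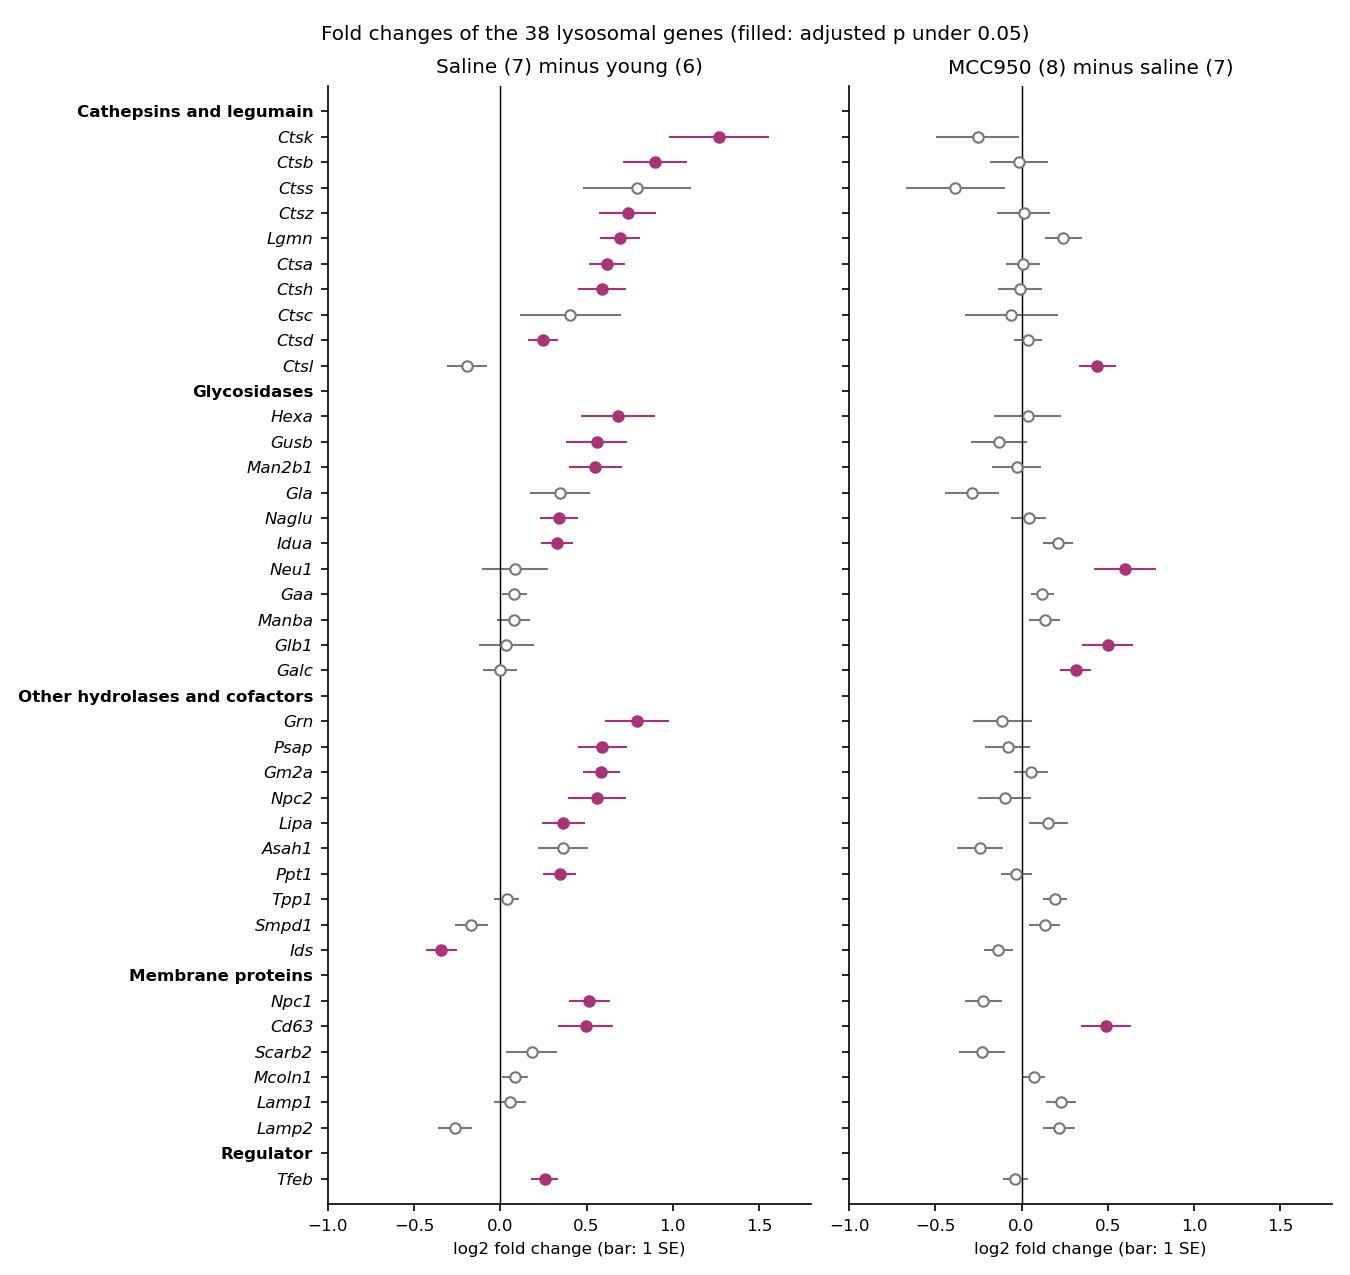
Log2 fold change of the 38 lysosomal genes in saline-treated against young (left) and MCC950-treated against saline-treated libraries (right), with bars of 1 SE and filled points at an adjusted p under 0.05. On the left 21 filled points lie above 0 and 1, Ids, below, and on the right 5 filled points lie above 0.

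Cathepsins and legumain had the largest median difference with age of the classes with several members, at 0.66 on the log2 scale, and 7 of the 10 rose. Ctsb, a cysteine protease with endo- and exopeptidase activity, had between 270 and 429 normalized CPM in young libraries (median 319) and between 445 and 814 in saline-treated libraries (median 593). Every saline-treated library was above every young one, and the log2 fold change was 0.90 (SE 0.18, adjusted p = 0.00142). Lgmn encodes legumain, the asparaginyl endopeptidase that also processes cathepsins, and its gene lies at chr12:102394082-102439728 (GRCm38.p6). Its level rose from 74.2 to 110 normalized CPM (median 99.2) in young to 128 to 173 (median 154) in saline-treated libraries, a log2 fold change of 0.69 (SE 0.12, adjusted p = 0.000241) with no overlap. Ctsa, the carboxypeptidase that protects beta-galactosidase and neuraminidase in a complex, lies at chr2:164832872-164841032. It had 59.9 to 96.1 normalized CPM (median 76.9) in young and 104.4 to 137.0 (median 116.8) in saline-treated libraries, which did not overlap, with a log2 fold change of 0.62 (SE 0.11, adjusted p = 0.000321).

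The carboxypeptidase gene Ctsz followed the same course, with 61.3 to 105.3 normalized CPM (median 89.8) in young and 105.5 to 173 (median 142) in saline-treated libraries. Its groups lay close but apart, at 105.3 for the highest young and 105.5 for the lowest saline-treated library, and its log2 fold change was 0.74 (SE 0.17, adjusted p = 0.00292). Ctsh, an aminopeptidase, rose from 37.1 to 61.9 normalized CPM (median 53.2) to 62.9 to 92.4 (median 77.4), a log2 fold change of 0.59 (SE 0.14, adjusted p = 0.00421). Ctsk, a collagen-degrading protease best known from osteoclasts, rose by 1.27 (SE 0.29, adjusted p = 0.00337) from 0.249 to 0.753 normalized CPM (median 0.314) to 0.636 to 1.20 (median 0.852). The Ctsk groups overlapped. At 27 to 83 reads per saline-treated library Ctsk stayed close to the limit of what these libraries could measure.

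Ctsd, the main aspartic protease of the lysosome, had a small difference of 0.24 (SE 0.09, adjusted p = 0.0442), with 257 to 350 normalized CPM (median 320) in young and 334 to 395 (median 372) in saline-treated libraries. Without any 1 of 14 of the 21 libraries its adjusted p lay between 0.0502 and 0.133, so the call was not stable. Ctss and Ctsc, a protease that trims the invariant chain of MHC class II and the activator of granule serine proteases, varied most between libraries and did not pass the test. Ctss had 57.6 to 280 normalized CPM in young and 193 to 436 in saline-treated libraries, a log2 fold change of 0.79 (SE 0.31, adjusted p = 0.0689). It passed without young replicate 4 (adjusted p = 0.0395) or MCC950 replicate 3 (0.0463). The log2 fold change was 0.40 (SE 0.29) for Ctsc and -0.19 (SE 0.12) for Ctsl, a cysteine endopeptidase and the only member of the class below 0.

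Among the 11 glycosidases, which remove sugars from glycans and glycolipids, 5 rose with age and none fell, at an adjusted or unadjusted p under 0.05 in edgeR or by DESeq2, with a median log2 fold change of 0.33. Man2b1, the lysosomal alpha-mannosidase, had 45.9 to 79.4 normalized CPM (median 63.0) in young and 79.9 to 106.5 (median 89.4) in saline-treated libraries, a log2 fold change of 0.55 (SE 0.15, adjusted p = 0.0113). Naglu, which degrades heparan sulfate, had 15.8 to 19.6 normalized CPM (median 18.3) in young and 20.2 to 25.1 (median 23.3) in saline-treated libraries, with a log2 fold change of 0.34 (SE 0.11, adjusted p = 0.0278). Neither gene had overlapping groups, and without young replicate 3 the adjusted p of Naglu was 0.0563. Hexa, the alpha subunit of beta-hexosaminidase, was higher by 0.68 (SE 0.21, adjusted p = 0.0236), the glucuronidase gene Gusb by 0.56 (SE 0.18, adjusted p = 0.0251) and the iduronidase gene Idua by 0.33 (SE 0.09, adjusted p = 0.0135), each with overlapping groups. The call of Hexa was lost without 1 of 5 libraries (young replicates 1, 2 and 3, saline replicates 2 and 7, adjusted p up to 0.0638). That of Gusb was lost without 1 of 6 libraries (the same 5 and saline replicate 3, up to 0.0806).

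The other 6 glycosidases did not pass. Gla, which cleaves terminal alpha-galactose from glycosphingolipids and is deficient in Fabry disease, a disorder with prominent podocyte storage, had a log2 fold change of 0.35 (SE 0.17, adjusted p = 0.148). Glb1 encodes the lysosomal beta-galactosidase whose activity is stained as a sign of senescence. Its transcript had 22.8 to 39.9 normalized CPM (median 23.7) in young and 23.5 to 36.4 (median 26.7) in saline-treated libraries, a log2 fold change of 0.04 (SE 0.16, adjusted p = 0.899). Neu1, Gaa, Manba and Galc, for sialidase, acid alpha-glucosidase, beta-mannosidase and galactosylceramidase, lay at 0.09 (SE 0.19), 0.08 (SE 0.07), 0.08 (SE 0.10) and -0.0003 (SE 0.098).

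Of the 10 hydrolases and cofactors for lipids, peptides and sulfates, 6 rose, 1 fell and 3 did not pass, with a median log2 fold change of 0.36. Psap rose from 796 to 1290 normalized CPM (median 1004) in young to 1326 to 1867 (median 1392) in saline-treated libraries, a log2 fold change of 0.59 (SE 0.14, adjusted p = 0.00457). Gm2a, the cofactor that presents the ganglioside GM2 to hexosaminidase, rose from 100 to 135 normalized CPM (median 123) to 165 to 213 (median 181), a log2 fold change of 0.59 (SE 0.11, adjusted p = 0.000454). Grn encodes progranulin, a secreted and lysosomal glycoprotein, and rose from 76.3 to 127 normalized CPM (median 98.2) to 130 to 203 (median 167), a log2 fold change of 0.79 (SE 0.19, adjusted p = 0.00403). In each of these 3 genes all saline-treated libraries were above all young ones.

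Npc2, which passes cholesterol out of the lysosome, was higher by 0.56 (SE 0.17, adjusted p = 0.0176), the acid lipase gene Lipa by 0.37 (SE 0.12, adjusted p = 0.0346) and the palmitoyl-protein thioesterase gene Ppt1 by 0.35 (SE 0.10, adjusted p = 0.0116), with overlapping groups. These calls were lost without 1 of 10 libraries for Lipa (adjusted p up to 0.101), without young replicate 3 or saline replicate 2 for Npc2 (0.0598 and 0.0550) and without saline replicate 2 for Ppt1 (0.0519). Ids, the iduronate sulfatase deficient in Hunter syndrome, went the other way. It had 42.0 to 51.0 normalized CPM (median 45.9) in young and 31.7 to 42.0 (median 35.1) in saline-treated libraries, which met at 42.00 and 41.96 without overlapping, and its log2 fold change was -0.34 (SE 0.09, adjusted p = 0.00833). Asah1, Tpp1 and Smpd1, for acid ceramidase, tripeptidyl peptidase and acid sphingomyelinase, lay at 0.36 (SE 0.15, adjusted p = 0.0728), 0.04 (SE 0.07) and -0.17 (SE 0.10). Asah1 passed without young replicate 4 (0.0295) or saline replicate 5 (0.0488).

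Lysosomal membrane proteins differed less, with 2 of 6 higher and a median log2 fold change of 0.13. Npc1, the cholesterol transporter that receives its cargo from NPC2, had 13.0 to 20.2 normalized CPM (median 15.9) in young and 19.9 to 25.3 (median 23.0) in saline-treated libraries, a log2 fold change of 0.51 (SE 0.12, adjusted p = 0.00343). Only 1 of the 7 saline-treated libraries lay within the young range. Cd63, a tetraspanin of late endosomes and exosomes, was higher by 0.50 (SE 0.16, adjusted p = 0.0262), a call lost without young replicate 2, 3 or 4 or saline replicate 1 or 5 (adjusted p up to 0.0616). Lamp1 and Lamp2, the most abundant coat proteins of the lysosomal membrane, did not move with the hydrolases. Lamp1 had 297 to 395 normalized CPM (median 313) in young and 292 to 380 (median 344) in saline-treated libraries, a log2 fold change of 0.06 (SE 0.09). The log2 fold change of Lamp2 was -0.26 (SE 0.10, adjusted p = 0.0574), and all 7 saline-treated libraries lay below the young median. It passed without any 1 of 7 libraries (young replicates 2, 3 and 6, saline replicates 1 and 3, MCC950 replicates 2 and 7), with an adjusted p from 0.0378 to 0.0481. Scarb2, the receptor that carries beta-glucocerebrosidase to lysosomes, and Mcoln1, a cation channel, lay at 0.18 (SE 0.15) and 0.09 (SE 0.07).

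Tfeb, which encodes the transcription factor that drives lysosomal and autophagic genes, had 17.1 to 21.9 normalized CPM (median 20.7) in young and 22.3 to 25.3 (median 24.4) in saline-treated libraries. The groups did not overlap, and the log2 fold change was 0.26 (SE 0.08, adjusted p = 0.0206). The call was lost without any 1 of 6 libraries (young replicates 1 and 2, saline replicates 2, 3, 6 and 7), with an adjusted p of at most 0.0653. The activity of TFEB, which depends on where the protein lies in the cell, is not measured by its transcript.

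**Figure D3:**
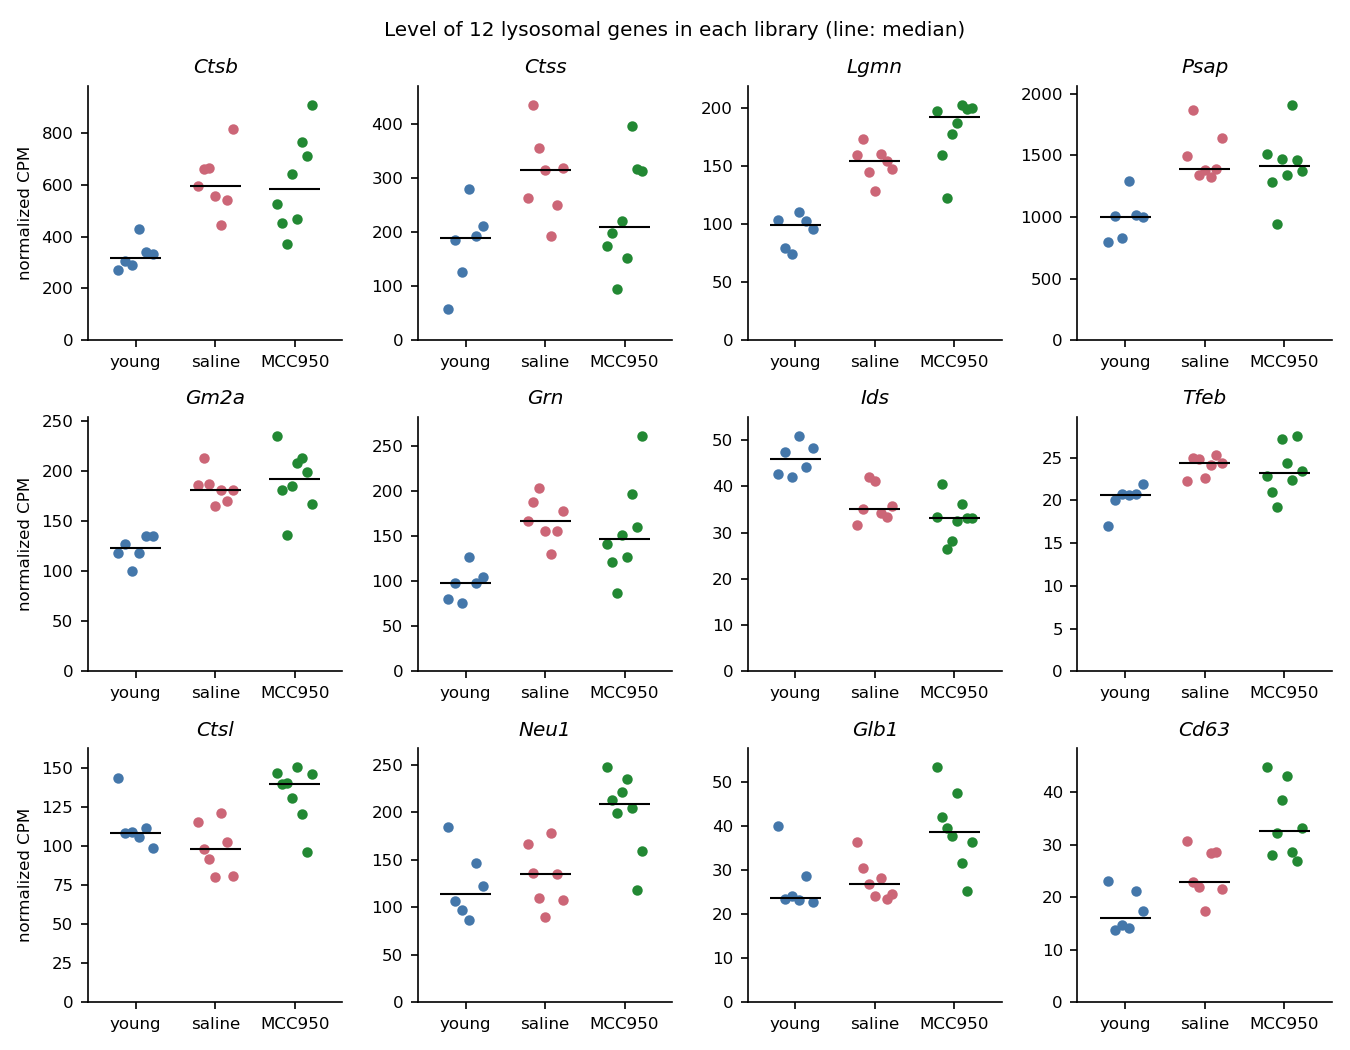
Normalized CPM of 12 lysosomal genes in each young, saline-treated and MCC950-treated library, with the median as a line. Ctsb, Lgmn, Psap, Gm2a, Grn and Tfeb are higher and Ids is lower in saline-treated than in young libraries without overlap, and Ctsl, Neu1, Glb1 and Cd63 are shifted upward in MCC950-treated libraries with overlap.

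Markers of other cells moved with the comparison of age. The summed level of 14 macrophage and myeloid markers was 512 to 2415 normalized CPM (median 1639) in young and 1798 to 4255 (median 2874) in saline-treated libraries. All 14 had a log2 fold change above 0 (median 0.86), 5 passed the test and none was at 0 counts in any library. Podocyte markers went the opposite way, with 14 of 15 lower (median -1.96), as did 9 of 10 endothelial markers. Also lower were 7 of 9 markers of mesangium and smooth muscle (median -1.14) and 4 of 8 of the collecting duct (median -0.61). In the loop and distal tubule list 2 of 7 were lower. None of the 15 proximal tubule markers passed (1, lower, at an unadjusted p under 0.05 and 1 by DESeq2). Of the 7 T cell and 7 B and plasma cell markers, 3 each were higher. When the mean log2 level of the macrophage and myeloid markers was added to the model as a covariate, 8 lysosomal genes in place of 21 were higher in saline-treated mice, and the median over the 38 members was 0.16. Over all 16377 genes tested, 1639 in place of 1996 were then higher, and the median was 0.05. The 8 included Ctsa (0.39, adjusted p = 0.00404), Lgmn (0.58, adjusted p = 0.00404), Gm2a (0.50, adjusted p = 0.00664), Ctsb (0.47, adjusted p = 0.0246) and Cd63 (0.76, adjusted p = 0.00261), next to Ctsz, Ctsk and Manba, the last of which did not pass without the covariate. Of the genes that were no longer called, Grn lay at 0.33 (adjusted p = 0.074), Psap at 0.33 (0.0741), Ctsh at 0.24 (0.0644), Npc1 at 0.23 (0.0684), Man2b1 at 0.16 (0.185), Tfeb at 0.14 (0.223), Npc2 at 0.13 (0.380), Hexa at 0.11 (0.483) and Gusb at 0.07 (0.635). Also no longer called were Naglu at 0.37 (0.0556), Lipa at 0.37 (0.0855), Ctsd at 0.26 (0.0709), Idua at 0.29 (0.0689) and Ppt1 at 0.16 (0.213). The log2 fold changes of Naglu, Lipa and Ctsd were not smaller than without the covariate. With the covariate Ctss lay at -0.07 and Ctsc at -0.42 (adjusted p = 0.00908), both below 0, and Ids stayed lower at -0.49 (adjusted p = 0.00126). With all libraries thinned to equal depth outside mitochondrial genes, 21 members were higher and 1 lower. The part of macrophages, of podocyte number and of the other marked cells in the difference was not tested beyond these values.

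**Figure D4:**
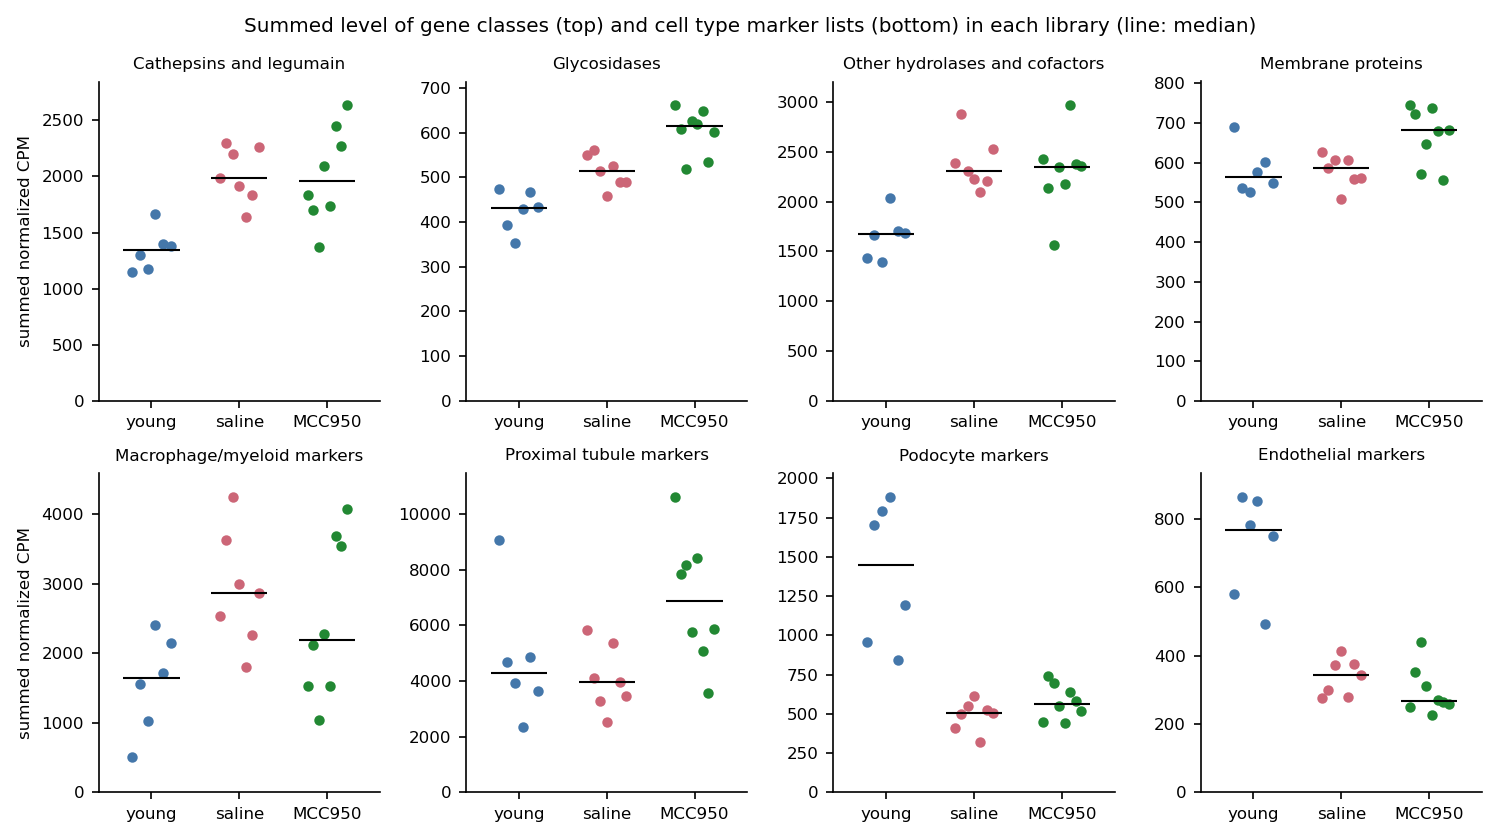
Summed normalized CPM in each library of 4 classes of lysosomal genes (top) and of macrophage and myeloid, proximal tubule, podocyte and endothelial markers (bottom), with the median as a line. Cathepsins with legumain are higher in saline-treated than in young libraries, as are macrophage markers, and proximal tubule markers are highest in MCC950-treated libraries.

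The second comparison asked what MCC950 changed in lysosomal transcripts of middle-aged mice. MCC950-treated mice had higher levels of 5 of the 38 genes, the protease gene Ctsl, the glycosidase genes Glb1, Galc and Neu1 and the tetraspanin gene Cd63. The share of 13.2% was close to that of all genes tested, of which 11.9% were higher and 4.86% lower. No member was lower by edgeR's quasi-likelihood test or by DESeq2. At an unadjusted p under 0.05 none was lower and 10 were higher. The share of all genes at that threshold was not counted, so these 10 have no background beside them. The median log2 fold change of the 38 was 0.02, with 21 above and 17 below 0 and a range from -0.38 to 0.60, and the median over all genes was 0.003. No member separated MCC950-treated from saline-treated libraries completely, as did 1.15% of all genes upward and 0.586% downward.

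Ctsl had 80.3 to 121.3 normalized CPM (median 98.4) in saline-treated and 96.3 to 151 (median 140) in MCC950-treated libraries, and 6 of 8 MCC950-treated libraries lay above every saline-treated one. Its log2 fold change was 0.44 (SE 0.11, adjusted p = 0.0117), and the call held without any 1 of the 21 libraries. Neu1, the sialidase that removes terminal sialic acids, had 89.5 to 178 normalized CPM (median 135) in saline-treated and 118 to 248 (median 208) in MCC950-treated libraries, a log2 fold change of 0.60 (SE 0.18, adjusted p = 0.0268). Glb1 had 23.5 to 36.4 normalized CPM (median 26.7) in saline-treated and 25.2 to 53.3 (median 38.6) in MCC950-treated libraries, a log2 fold change of 0.50 (SE 0.15, adjusted p = 0.0258). The products of Neu1, Glb1 and Ctsa are known to form 1 complex in the lysosome, and Ctsa did not pass, with medians of 116.8 and 117.4. Galc, which removes galactose from galactosylceramide, had 25.6 to 31.0 normalized CPM (median 27.7) in saline-treated and 26.7 to 40.7 (median 35.6) in MCC950-treated libraries, a log2 fold change of 0.31 (SE 0.09, adjusted p = 0.0242).

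Cd63 had 17.3 to 30.7 normalized CPM (median 22.9) in saline-treated and 26.9 to 44.8 (median 32.7) in MCC950-treated libraries, a log2 fold change of 0.49 (SE 0.15, adjusted p = 0.0262). All 8 MCC950-treated libraries were above the saline-treated median. Members that did not pass but ranked next were Tpp1, a peptidase deficient in a form of neuronal ceroid lipofuscinosis, at 0.19 (SE 0.07, adjusted p = 0.0564), Lamp1 at 0.23 (SE 0.09, adjusted p = 0.0765), Idua at 0.21 (SE 0.09, adjusted p = 0.0954), Lamp2 at 0.22 (SE 0.09, adjusted p = 0.110) and Lgmn at 0.24 (SE 0.11, adjusted p = 0.122). Lgmn had 122 to 202 normalized CPM (median 192) in MCC950-treated libraries while Lamp2 had 143 to 173 normalized CPM (median 155) in saline-treated and 148 to 226 (median 182) in MCC950-treated libraries. Lamp1 had 325 to 454 normalized CPM (median 407) with MCC950, and 6 of 8 of these libraries were above every saline-treated one. Idua had 18.2 to 23.8 normalized CPM (median 20.5) in saline-treated and 20.8 to 26.5 (median 23.5) in MCC950-treated libraries. Tpp1 had 71.6 to 85.9 normalized CPM (median 76.3) in saline-treated and 77.1 to 99.5 (median 90.1) in MCC950-treated libraries. In each of these 5 genes the upper part of the MCC950-treated range lay above the saline-treated range. Gaa, with medians of 40.8 and 45.9, lay at 0.12 (SE 0.07, adjusted p = 0.214) and Npc1, with medians of 23.0 and 20.9, at -0.22 (SE 0.11, adjusted p = 0.166).

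The number called was sensitive to single libraries. It was 1 without saline replicate 3, saline replicate 4 or MCC950 replicate 1, it was 2 without saline replicate 7 or MCC950 replicate 5, and it was 8 without MCC950 replicate 7. The number higher over all genes tested moved too, from 1957 with all libraries. It was 1149, 1008 and 1338 without saline replicate 3, saline replicate 4 and MCC950 replicate 1. Without saline replicate 7, MCC950 replicate 5 and MCC950 replicate 7 it was 1287, 1367 and 2392. The highest adjusted p on leaving out 1 library was 0.0675 for Glb1, 0.0597 for Galc, 0.0715 for Neu1 and 0.0694 for Cd63, each without saline replicate 4, and without MCC950 replicate 7 Tpp1 (0.0276), Lamp1 (0.0320) and Lamp2 (0.0492) passed. Lgmn passed without MCC950 replicate 3 (0.0337) and Tpp1 without young replicate 1 (0.0404).

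Proximal tubule markers moved with this comparison. Their summed level was 2528 to 5845 normalized CPM (median 3966) in saline-treated and 3586 to 10629 (median 6871) in MCC950-treated libraries, with 8 of 15 higher and a median log2 fold change of 0.88. None was at 0 counts in any library. Podocyte markers were also higher in 5 of 15 (median 0.51). With the mean log2 level of the proximal tubule markers as a covariate, 472 of all 16377 genes tested were higher, in place of 1957. None of the 5 lysosomal genes passed. Their log2 fold changes were then 0.13 for Ctsl (adjusted p = 0.288), 0.05 for Glb1 (0.810), 0.13 for Galc (0.424), 0.05 for Neu1 (0.794) and 0.12 for Cd63 (0.594). Macrophage and myeloid markers had log2 fold changes below 0 in all 14 (median -0.27), of which none passed in edgeR or DESeq2 and 1 had an unadjusted p under 0.05, and their summed level in MCC950-treated libraries ranged from 1044 to 4081. With the macrophage covariate all 5 calls held, with Glb1 at 0.37 (adjusted p = 0.0413), Neu1 at 0.47 (adjusted p = 0.034) and Ctsl at 0.36 (adjusted p = 0.0104). The mitochondrial share of counts also moved, from 63.0% to 79.2% (median 68.6%) in saline-treated to 49.9% to 63.7% (median 57.5%) in MCC950-treated libraries, ranges that overlapped only between 63.0% and 63.7%. With mitochondrial genes left out of the fit, 5 members were higher and 0 lower. The part of proximal tubule cells and of the mitochondrial share in the difference was not tested further.

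MCC950-treated mice were also set against young mice, a comparison that shares its libraries with both of the others. Lysosomal genes were again mostly higher, with 26 of 38 called higher (68.4%) and 1 lower, where 21.8% of all genes were higher and 16.5% lower, and the median log2 fold change was 0.40 against 0.08 over all genes. By class, 7 of the 10 cathepsins with legumain and 8 of 11 glycosidases were higher. So were 7 of 10 other hydrolases and cofactors, 3 of 6 membrane proteins and Tfeb. Markers of other cells differed here too. Proximal tubule markers were higher in 8 of 15 (median 0.68) and macrophage and myeloid markers in 3 of 14 (median 0.68), while podocyte markers were lower in 14 of 15, endothelial markers in 10 of 10 and collecting duct markers in 8 of 8, and their part in the difference was not tested. The members of smallest p were Lgmn, higher by 0.94 (SE 0.11, adjusted p = 6.4e-06), and Cd63, higher by 0.99 (SE 0.16, adjusted p = 7.71e-05). Both were above every young library in all 8 MCC950-treated libraries, as were Gm2a at 0.64 (SE 0.10, adjusted p = 8.65e-05) and Idua at 0.54 (SE 0.09, adjusted p = 0.000146). Ids was below every young library in all 8, at 26.4 to 40.6 normalized CPM (median 33.2), with a log2 fold change of -0.48 (SE 0.09, adjusted p = 0.000285). Thus 4 members were higher and 1 lower without overlap, as were 537 and 763 of all 16377 genes tested. Against young mice, the log2 fold change was 0.63 (SE 0.10) for Ctsa, 0.88 (SE 0.18) for Ctsb, 0.75 (SE 0.16) for Ctsz, 0.58 (SE 0.14) for Ctsh, 0.52 (SE 0.12) for Lipa, 0.68 (SE 0.18) for Grn and 0.51 (SE 0.14) for Psap. Their ranges were wider than in saline-treated libraries for several members, for example 370 to 907 normalized CPM (median 585) for Ctsb, 87.5 to 261 (median 146) for Grn and 943 to 1910 (median 1417) for Psap. The range was 84.8 to 159 (median 114.4) for Lipa, against 72.4 to 110.9 (median 76.6) in young libraries, 91.1 to 188 (median 145.5) for Ctsz and 52.1 to 96.6 (median 78.1) for Ctsh. These 7 genes were called higher than in young mice, with adjusted p from 0.000117 for Ctsa to 0.00649 for Psap. Of the 27 calls, 18 held without any 1 of the 21 libraries, those of the 12 genes of smallest p among them. The call of Tfeb (adjusted p = 0.0266) was lost without any 1 of 14 libraries and that of Npc1 (0.0494) without any 1 of 17.

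Other genes of the same organelle were counted from 5 lists. With age, 12 of 36 further lysosomal proteins were higher (33.3%) and 3 lower, with a median log2 fold change of 0.22. The members of smallest p were Acp5, the tartrate-resistant acid phosphatase of osteoclasts and macrophages, at 1.36 (SE 0.22, adjusted p = 0.000209), and Dnase2a, which degrades ingested DNA, at 1.18 (SE 0.20, adjusted p = 0.000253). Of 23 subunits of the V-ATPase, 3 were higher and 5 lower (median -0.02), among them Atp6v0a1 at 0.36 (SE 0.09, adjusted p = 0.0051) and Atp6v0d2 at -0.57 (SE 0.15, adjusted p = 0.00812). Sorting receptors and cathepsin inhibitors had 3 of 9 tested genes higher and 1 lower, among them Cstb, the cytosolic inhibitor cystatin B, at 0.64 (SE 0.10, adjusted p = 0.000176), and M6pr, a mannose 6-phosphate receptor, at 0.30 (SE 0.07, adjusted p = 0.00333). Of 16 genes for relatives of TFEB and for mTORC1 at the lysosome, 4 were higher and 1 lower, among them the Ragulator subunit Lamtor1 at 0.39 (SE 0.08, adjusted p = 0.00165) and the GTPase Rragd at -0.48 (SE 0.12, adjusted p = 0.00639). Only 1 of 26 autophagy genes was higher, Gabarap (0.24, SE 0.07, adjusted p = 0.016), and 1 lower, the autophagy receptor Optn (-0.61, SE 0.12, adjusted p = 0.000845), with a median of -0.002. Over the 5 lists 23 genes were higher and 11 lower, where 12.2% of all genes tested were higher and 12.4% lower. The higher count was 13 to 15 without young replicate 2 or 3 or saline replicate 2 or 3, the lower count was 6 without young replicate 3, and with the macrophage covariate the counts were 14 and 5.

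With MCC950 against saline, 6 of the 23 V-ATPase subunits were higher (26.1%) and none lower, also at an unadjusted p under 0.05 in edgeR and by DESeq2, with a median of 0.18. The smallest p belonged to Atp6v1b2 at 0.47 (SE 0.08, adjusted p = 0.0015) and Atp6v0d1 at 0.35 (SE 0.07, adjusted p = 0.00269). Of the further lysosomal proteins 3 were higher and 2 lower of 36, with the fucosidase gene Fuca1 at 0.43 (SE 0.10, adjusted p = 0.00913) and the peptidase gene Scpep1 at 0.33 (SE 0.09, adjusted p = 0.0164). Of the sorting genes 1 was higher and 1 lower, Gnptg, a subunit of the enzyme that tags hydrolases for sorting, at 0.32 (SE 0.09, adjusted p = 0.0239) and the sorting receptor Sort1 at -0.39 (SE 0.09, adjusted p = 0.0096). Tfec, a relative of Tfeb, rose by 1.15 (SE 0.21, adjusted p = 0.00199) and Lamtor5 by 0.42 (SE 0.09, adjusted p = 0.00708), among 3 of 16 genes of their list that were higher and none lower (1 at an unadjusted p under 0.05 and 0 by DESeq2). The autophagy genes Sqstm1, for the cargo receptor p62, and Map1lc3a were the 2 of 26 that were higher, at 0.29 (SE 0.07, adjusted p = 0.00952) and 0.40 (SE 0.11, adjusted p = 0.0161). Over the 5 lists 15 genes were higher and 3 lower, where 11.9% of all genes tested were higher and 4.86% lower. The shares higher of the further lysosomal proteins (8.33%) and of the autophagy genes (7.69%) were below that of all genes. With the proximal tubule covariate 5 genes of the lists were higher, and 472 of all 16377 genes tested. Without saline replicate 4 the count of higher genes over the 5 lists was 9.

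**Figure D5:**
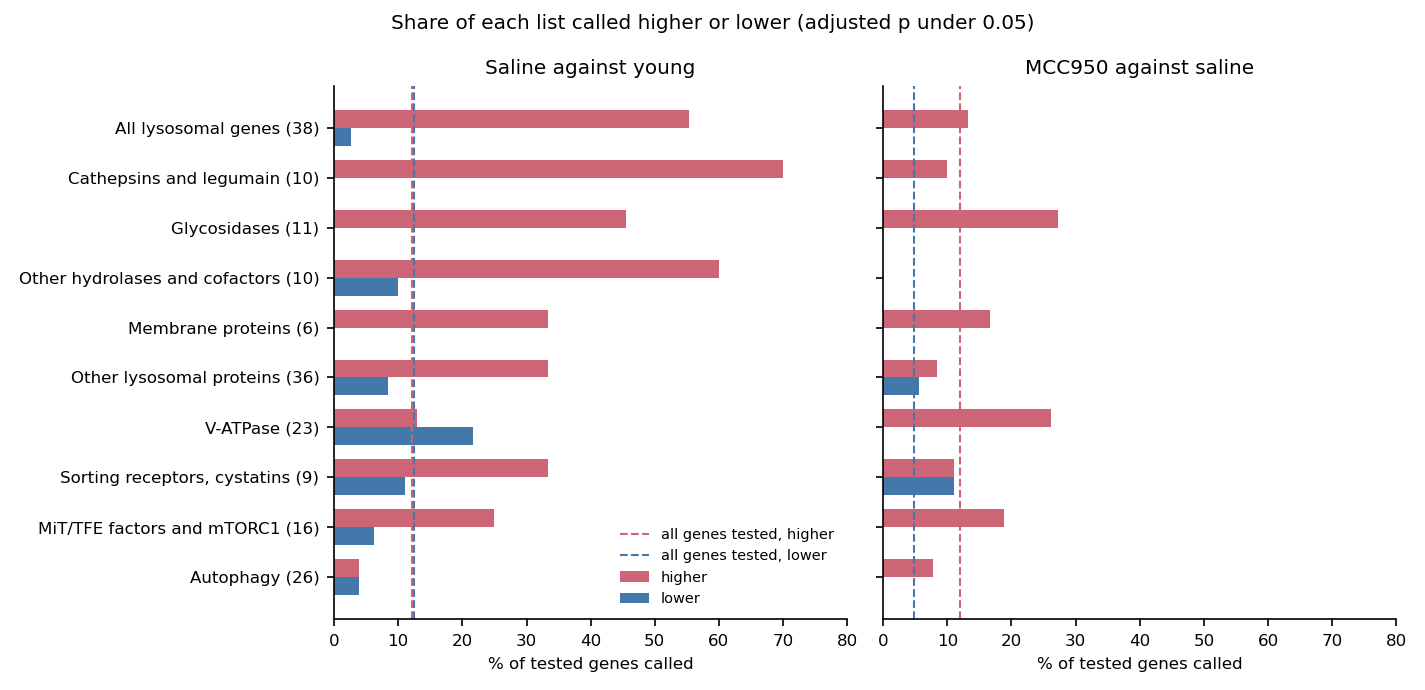
Percent of the tested genes of each list called higher or lower (adjusted p under 0.05) in saline-treated against young and in MCC950-treated against saline-treated libraries, with the share over all genes tested as dashed lines and the number tested in brackets. Cathepsins with legumain reach 70% higher with age, where autophagy genes stay at 3.85%. With MCC950, glycosidases (27.3%), V-ATPase subunits (26.1%), TFEB relatives with mTORC1 genes (18.8%) and membrane proteins (16.7%) lie above the share of all genes. The 38 members together, at 13.2%, lie close to it. The 3 glycosidase calls were each lost without saline replicate 3, saline replicate 4 or MCC950 replicate 1.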

How the data were processed

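Reads were trimmed (Trim Galore), mapped to mm10 (Bowtie2) and assigned to genes (featureCounts) by the authors. The annotation release, strand setting and handling of reads with several alignments were not given in the sources used here. The deposited tables hold raw counts per Entrez Gene number for 21 libraries, and the authors' normalized table, which covers 20 libraries, was not used. Gene names and promoters came from RefSeq (GRCm38.p6) and exon lengths from GENCODE. Groups were taken from the labels (6 young, 7 saline, 8 MCC950). The paper's number of 4-month-old mice differs from the 6 labelled libraries, all of which were used. No 2 libraries of a group agreed within counting noise (lowest chi-square per degree of freedom 17.7).

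All 3 groups entered 1 fit in edgeR 4.0.16 (R 4.3.3): TMM, filterByExpr by group, quasi-likelihood F test, Benjamini-Hochberg adjustment over 16377 genes. SE is the size of the log2 fold change over the square root of F. Levels are CPM on TMM-scaled library sizes, divided by exon length where genes were compared. The workflow was tested on simulated counts. Counts are limited by depth: the lowest member count in a library was 6 (Ctsk), and each value covers separate mice.

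The members, lists, markers and tests were chosen with earlier results of these data known. All 38 members are described. Those among the 12 of smallest p in a comparison or without overlap have their ranges, and from each other list at most the 2 genes of smallest p are named. Alternatives were DESeq2 1.42.0, RLE factors, no or a stricter count filter, 2 groups only, the replicate number as a block, thinned libraries, no mitochondrial genes, marker scores as covariates, the threshold of an unadjusted p under 0.05 with over 2-fold change, and each library left out.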

Additional observations from a re-analysis of the deposited data

Results flagged for a closer look

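Dixon's test was applied to each of the 38 genes in each of the 3 groups, of which chance alone flags about 1 in 20, and 5 stood out. Young replicate 1 was the highest young library for Ctsl, at 143.6 normalized CPM against 98.6 to 111.8 in the others (gap over range 0.666), and for Lipa, at 110.9 against 72.4 to 81.7 (0.715). The same library was the lowest young one for Tfeb, at 17.1 against 20.1 to 21.9 (0.647). Young replicate 4 was the highest for Ppt1, at 64.6 against 54.2 to 56.4 (0.781). MCC950 replicate 3 was the lowest MCC950-treated library for Npc2, at 86.4 against 126.9 to 176 (0.540). Without young replicate 1 the call of Tfeb with age was lost (adjusted p = 0.0561), whereas those of Lipa and Ppt1 were kept without young replicate 1 and young replicate 4, respectively.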

How the results depend on the processing

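Of the 21 members higher and 1 lower in saline-treated than in young mice, 8 and 2 were called when the macrophage score was a covariate. Only 1 (Ctsk) and 0 passed at an unadjusted p under 0.05 and over 2-fold. DESeq2, RLE size factors, a fit of only the 2 groups and the proximal tubule score each called 2 lower members, Lamp2 with Ids, and leaving out 1 library gave 14 to 22 higher and 1 to 2 lower. Of the 5 members higher and 0 lower with MCC950 than saline, 0 were higher with the proximal tubule score and 0 at the 2-fold threshold, and leaving out 1 library gave 1 to 8. The replicate block called 2 members lower (Gla at -0.42 and Npc1 at -0.27, named after their values were seen), and its other counts for members stayed within 1.5 times of those without it. Against young mice, 26 higher and 1 lower became 1 and 0 at the 2-fold threshold, the macrophage score gave 2 lower, and leaving out 1 library gave 18 to 27 higher. The correlation of deviations between same-numbered libraries was -0.06 to 0.35 with age, -0.14 to 0.33 for MCC950 against saline and -0.01 to 0.40 for MCC950 against young, and replicate 1 was positive in each (0.35, 0.29 and 0.40). As not every pair was over 0.1, the numbers were not read as pairs.

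Over the 5 other lists, 23 higher and 11 lower with age became 35 higher with the proximal tubule score, 14 and 5 with the macrophage score, 7 lower without a count filter, 7 lower with the replicate block and 4 and 0 at the 2-fold threshold, and leaving out 1 library gave 13 to 25 and 6 to 13. The 15 higher and 3 lower with MCC950 became 5 higher with the proximal tubule score and 1 and 0 at the 2-fold threshold, with 9 to 19 and 2 to 4 on leaving out 1 library. Against young mice 38 higher and 11 lower became 24 higher in the fit of 2 groups and 3 and 0 at the 2-fold threshold, with 24 to 40 and 9 to 14.

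Changes of sign met only members that had not passed. With the macrophage score, the log2 fold change with age was -0.42 for Ctsc, 0.0167 for Ctsl, -0.0741 for Ctss, -0.0068 for Gla, 0.0835 for Galc, -0.0248 for Asah1 and -0.15 for Scarb2. Galc, at -0.0003, was 0.0116 without a count filter, 0.0099 with at least 10 counts in every library, 0.0376 with the replicate block and 0.0362 with the proximal tubule score. On leaving out 1 library Galc ranged from -0.0518 to 0.0599, Glb1 from -0.0484 to 0.18 and Neu1 from -0.0118 to 0.24. For MCC950 against saline the sign changed in 19 members with the proximal tubule score (Npc1 to 0.0385, Ctss from -0.38 to 0.32, Ctsc from -0.06 to 0.64, Gusb from -0.13 to 0.28, named after their values were seen), in 10 with the macrophage score and in 4 with the replicate block, none of them called with or without. DESeq2, RLE size factors, the fit of 2 groups and thinning each changed it in 2. Against young mice it changed in 6 with the macrophage score, 2 with the proximal tubule score and 1 with the replicate block. Ctsk was not tested under the minimum of 10 counts. The cause of these changes was not tested.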
